A study of Danio rerio with 12 samples.

Results

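Animals modify many foreign chemicals in steps, and the genes described here belong to enzyme families of the first steps. In phase I, cytochrome P450 monooxygenases of the cyp2 and cyp3 families oxidise lipophilic compounds, steroids and fatty acids in the endoplasmic reticulum. In phase II, UDP-glucuronosyltransferases (ugt), cytosolic sulfotransferases (sult) and glutathione S-transferases (gst) attach glucuronic acid, sulfate or glutathione, and membrane transporters then export the conjugates. In vertebrates the liver, the intestine and the kidney tubule carry much of this activity, and nuclear receptors such as Pxr (nr1i2) are known to regulate many of the genes.

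The genes were chosen by name, as those starting with cyp2, cyp3, ugt, sult or gst followed by a subfamily letter or number. Of 26873 genes in the files, 114 had such a name, and 103 of them reached a value of 10 in 3 or more of the 12 libraries and were tested among 22320 genes in all. The tested genes comprised 39 of 42 cyp2, 5 of 5 cyp3, 25 of 29 ugt, 19 of 20 sult and 15 of 18 gst genes. The 11 untested genes were cyp2k22, cyp2k31, cyp2x6, ugt1b3, ugt1b4, ugt1b6p, ugt5g2, 1 of the 2 entries named sult3st3, and 3 entries named GSTK1. The gene ugt5c2, tested at low counts, had 4, 10 and 12 normalised counts in the controls and 14 in each library at 1 ppm. The gene ugt5g2, just outside the limit, reached 10 in 2 libraries. Only 3 of the tested genes, cyp2x10.2, ugt5c2 and ugt5b5p, had a value under 10 in any library. Many of these genes are close copies of each other, 4 names are shared by 2 identifiers, and 5 of the 114 entries are not annotated as protein coding, so the split of reads between near-identical copies is uncertain.

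Wild-type zebrafish larvae were exposed to perfluorooctanesulfonate potassium salt (PFOS), a persistent fluorinated surfactant, in the water at 0.03, 0.3 or 1 ppm. Whether any of these enzymes acts on PFOS was not tested. Exposure ran from day 2 to day 5 after fertilisation, and RNA came from whole larvae at day 5. The controls had no PFOS, and all 4 groups, controls included, were in water with 0.2% dimethyl sulfoxide (DMSO), the solvent. Each group had 3 libraries, each from a pool of 10 larvae, and the labels do not say whether the pools came from separate clutches, so p-values measure the spread between these pools. In RNA from whole larvae, fewer cells of a type and less RNA per cell cannot be told apart.

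The deposited values were normalised counts, rounded to whole numbers, and summed to between 24061372 and 31907243 per library. Differences are log2 fold changes on the log2(value + 1) scale from limma, with Benjamini-Hochberg adjustment over all 22320 genes. With 3 libraries against 3, an exact permutation test of a single value cannot go below p = 0.1.

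In the main fit, which had no term for replicate number, no enzyme gene passed an adjusted p of 0.05 at any dose. At 0.03 ppm, 0 of 103 passed, where 0.0582% of all tested genes did. At 0.3 ppm it was again 0 of 103, against 0.13% of all genes, and at 1 ppm 0 of 103, against 0.139%. In the joint test of the 3 doses and in the slope over the order of the 4 groups, 0 of 103 passed as well, beside 0.0941% and 0.0134% of all genes. The lowest adjusted p of any enzyme gene was 0.699 at 1 ppm, for cyp2r1, and 0.571 in the slope, for sult1st3, so the values below are given as a description. With the replicate number as a block, 1 of 103 passed at 0.3 ppm, sult5a1, where 43 of all genes did. At 1 ppm 0 of 103 passed with the block, where 58 of all genes did. With weights estimated per library in place of equal ones, 11 of 103 passed at 1 ppm, where 768 of all genes did: cyp2aa4, cyp2aa8, cyp2aa12, cyp2ad2, cyp2k18, cyp2n13, cyp2r1, cyp2x7, sult1st3 and ugt5b4 higher and sult5a1 lower.

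At an unadjusted p under 0.05, the count at 1 ppm was 17 enzyme genes, 14 higher and 3 lower, which is 16.5% of the 103 against 4.74% of all genes (2.14% higher and 2.6% lower). At 0.03 ppm it was 2 genes, against 3.49% of all genes, and at 0.3 ppm 6 genes, against 2.82%. The count at 1 ppm was 6 without replicate 1 of that group, all higher, against 3.34% of all genes. Without replicate 3 of that group it was 6, 5 higher and 1 lower, against 2.63%. It was 9 without control replicate 3, 7 higher and 2 lower, against 4.00%. Without control replicate 1 it was 11, against 5.999%, and these were nearly even in direction, 6 higher and 5 lower. In the slope it was 17 genes, against 5.56% of all genes, and in the joint test 2, against 2.34%. The slope count was 10 without control replicate 3, against 4.225% of all genes, and 10 without replicate 3 at 1 ppm, against 3.441%. With the replicate number as a block, the count was 12 at 0.3 ppm, against 5.07% of all genes, and 20 at 1 ppm, against 8.64%. The enzyme genes were above control in 64, 63 and 71 of 103 cases at 0.03, 0.3 and 1 ppm, beside 46.6%, 48.8% and 48.3% of all genes. Their median log2 fold change was 0.08, 0.06 and 0.16, beside -0.02, -0.01 and -0.01 for all genes. With library weights the numbers above control were 45, 52 and 69, and the medians -0.0390, 0.0015 and 0.16. The medians at the lower doses turned below 0 when 1 library was left out, down to -0.05 at 0.03 ppm (without control replicate 1 or replicate 2 of that dose) and -0.02 at 0.3 ppm (without control replicate 1 or replicate 3 of that dose), and the number above control went down to 47 and 46. The 3 comparisons share the same controls.

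**Figure D1:**
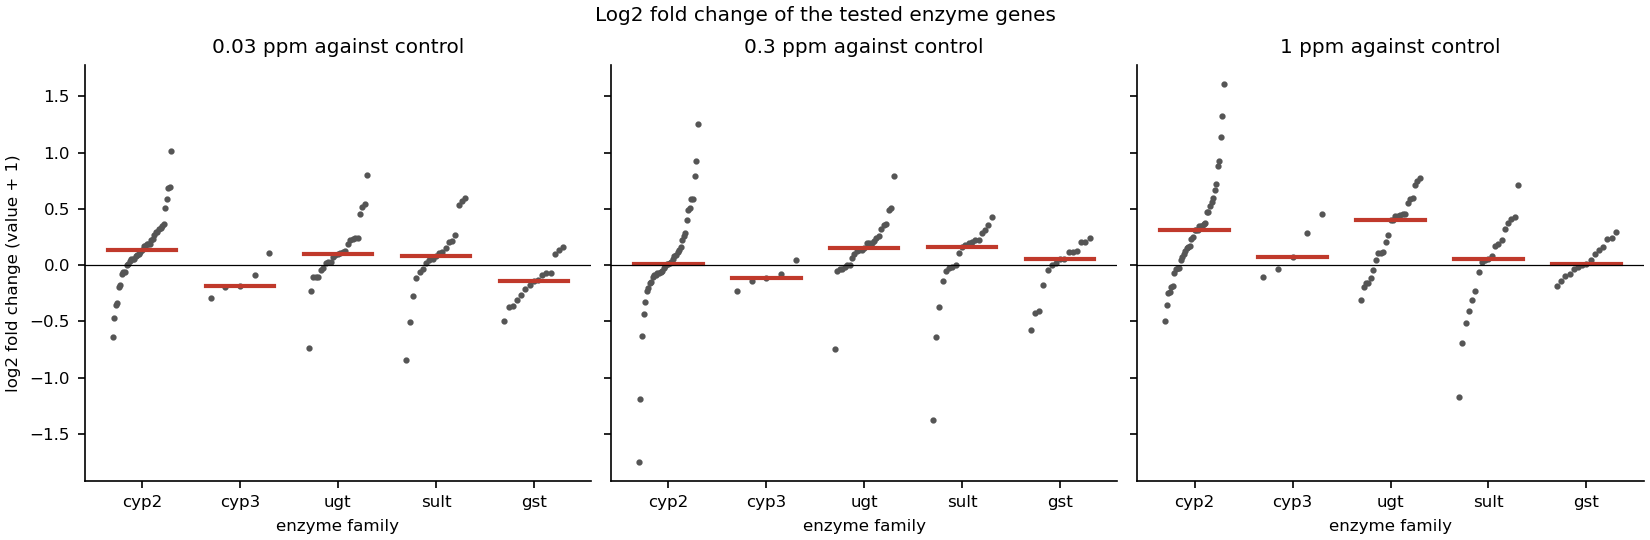
Log2 fold change against control on the log2(value + 1) scale for the 103 tested enzyme genes by family, at 0.03, 0.3 and 1 ppm PFOS; each point is a gene and each red line the family median. At 1 ppm the medians were 0.31 for cyp2 and 0.40 for ugt, and 0.07, 0.06 and 0.01 for cyp3, sult and gst.

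Summed over their genes, cyp2, cyp3 and ugt had all 3 libraries at 1 ppm above all 3 controls, and sult and gst did not. The cyp2 sum was 16004, 19052 and 15973 normalised counts in the controls and 21307, 19849 and 21659 at 1 ppm. The cyp3 sum was 9815, 12644 and 10756 in the controls and 14026, 13039 and 14801 at 1 ppm. The ugt sum was 10600, 11187 and 12682 in the controls and 14930, 13022 and 16452 at 1 ppm. These 3 sums were 0.30, 0.33 and 0.37 higher at 1 ppm on the log2 scale. The cyp3c genes alone summed to 2645, 3324 and 2961 in the controls and 2945, 2822 and 2917 at 1 ppm, which overlap. The ugt sums without ugt1a1 also overlapped. The sums were not scaled to equal library totals. As a share of the library total, replicate 2 at 1 ppm was below control replicate 2 for cyp3 and below control replicate 3 for ugt. The sult sum ran from 9922 to 11556 in the controls and from 10312 to 12399 at 1 ppm, and the gst sum from 49965 to 59014 and from 50776 to 66634, so both overlapped. At the lower doses the sums of all 5 families overlapped the controls.

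**Figure D2:**
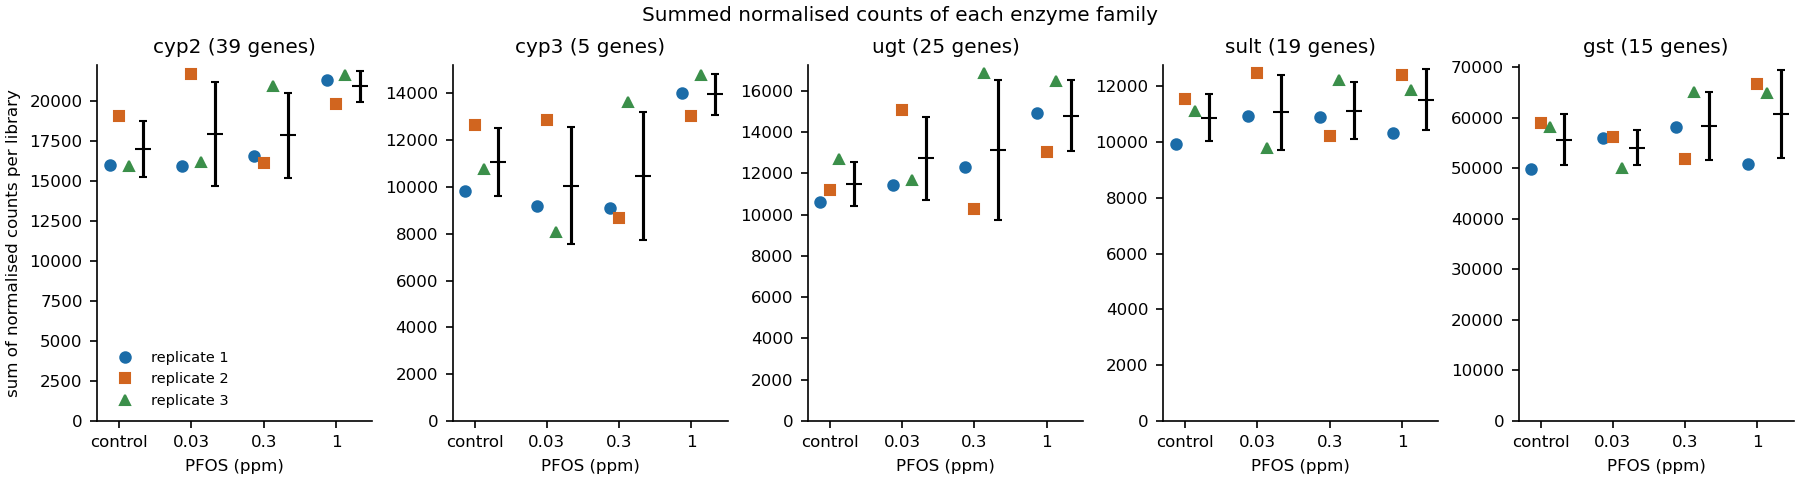
Summed normalised counts per library of each enzyme family at each PFOS dose, with points for the 3 replicates and a bar for mean ± SD (n = 3). The cyp2, cyp3 and ugt sums at 1 ppm lie above all controls, with the lowest at 19849, 13039 and 13022, whereas sult and gst overlap.

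Among the phase I genes, 29 of 39 cyp2 genes were above control at 1 ppm, with a median of 0.31, beside 48.3% of all genes. Of the 39, 9 had an unadjusted p under 0.05, beside 4.74% of all genes. All 9 were higher: cyp2r1, cyp2k6, cyp2k18, cyp2x7, cyp2aa8, cyp2ad2, cyp2aa12, cyp2y3 and cyp2aa4. At 0.03 ppm 29 of 39 were also above control, with a median of 0.13, and at 0.3 ppm 21 of 39, with a median of 0.01.

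The gene cyp2r1 (ENSDARG00000056587) encodes a vitamin D 25-hydroxylase in mammals. It had 133, 70 and 57 normalised counts in the controls, 150, 110 and 139 at 0.03 ppm, 100, 107 and 140 at 0.3 ppm, and 125, 162 and 183 at 1 ppm. Control replicate 1 lay inside the range of the exposed libraries, so the groups overlapped at every dose. Its log2 fold change at 1 ppm was 0.93 (SE 0.29, limma adjusted p = 0.699).

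The gene cyp2k6 had 49, 104 and 51 normalised counts in the controls and 220, 183 and 189 at 1 ppm. At 0.03 ppm it had 167, 191 and 34, and at 0.3 ppm 184, 76 and 64. Every library at 1 ppm was above every control, while the lower doses overlapped the controls. Its log2 fold change at 1 ppm was 1.61 (SE 0.58, limma adjusted p = 0.863), the largest of the 103.

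The gene cyp2k18 had 554, 482 and 425 normalised counts in the controls and 1094, 708 and 910 at 1 ppm. The groups did not overlap, and replicate 2 was the lowest at 1 ppm. The log2 fold change was 0.88 (SE 0.32, limma adjusted p = 0.874). For cyp2aa8 the controls had 105, 216 and 70 and the 1 ppm libraries 417, 153 and 397. Replicate 2 at 1 ppm lay within the control range, and the log2 fold change was 1.32 (SE 0.54).

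The gene with the largest share of the cyp2 counts was cyp2y3, with 24.5% of the family sum. It had 3822, 4428 and 4071 normalised counts in the controls and 5107, 5149 and 5405 at 1 ppm. The groups were apart by a small margin in fold, at a log2 fold change of 0.35 (SE 0.16). The next, cyp2ad3, with 13.2% of the sum, had 2522 ± 196 in the controls and 2495 ± 433 at 1 ppm (SD, n = 3). Its 95% interval for the log2 fold change ran from -0.35 to 0.30.

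The entry cyp2x10.2 (ENSDARG00000068283) had 59, 68 and 23 normalised counts in the controls and 4, 24 and 20 at 0.3 ppm. The control of 23 lay inside the range at 0.3 ppm, and the log2 fold change was -1.75 (SE 0.61), the lowest of the 103 in any comparison. At 1 ppm it had 27, 33 and 70, close to the range of the controls.

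Most cyp2 genes sit in arrays of neighbours. In the RefSeq gene order of zebrafish (assembly GRCz12tu, used for names and order only), 95 of the 114 genes were found by symbol. Allowing at most 2 other protein-coding genes between neighbours, 71 of them fell in 16 runs. In a run of 11 genes, made of cyp2aa genes and cyp2ae1, 10 were above control at 1 ppm, with a median log2 fold change of 0.37, and 5 of 11 at 0.3 ppm. Of all genes, 48.3% were above control at 1 ppm and 48.8% at 0.3 ppm. In the run of 8 cyp2k genes, 7 were above control at 1 ppm, with a median of 0.33. In the third, of 11 genes from cyp2n13 to cyp2j20, 7 were, with a median of 0.07. The genes of a run were measured in the same pools. Without scaling to library totals, the cyp2aa sum was 1200, 1983 and 1784 in the controls and 2357, 1955 and 2332 at 1 ppm, which overlap. The cyp2k sum was 2385, 2697 and 2466 in the controls and 3604, 2965 and 3600 at 1 ppm, which do not.

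**Figure D3:**
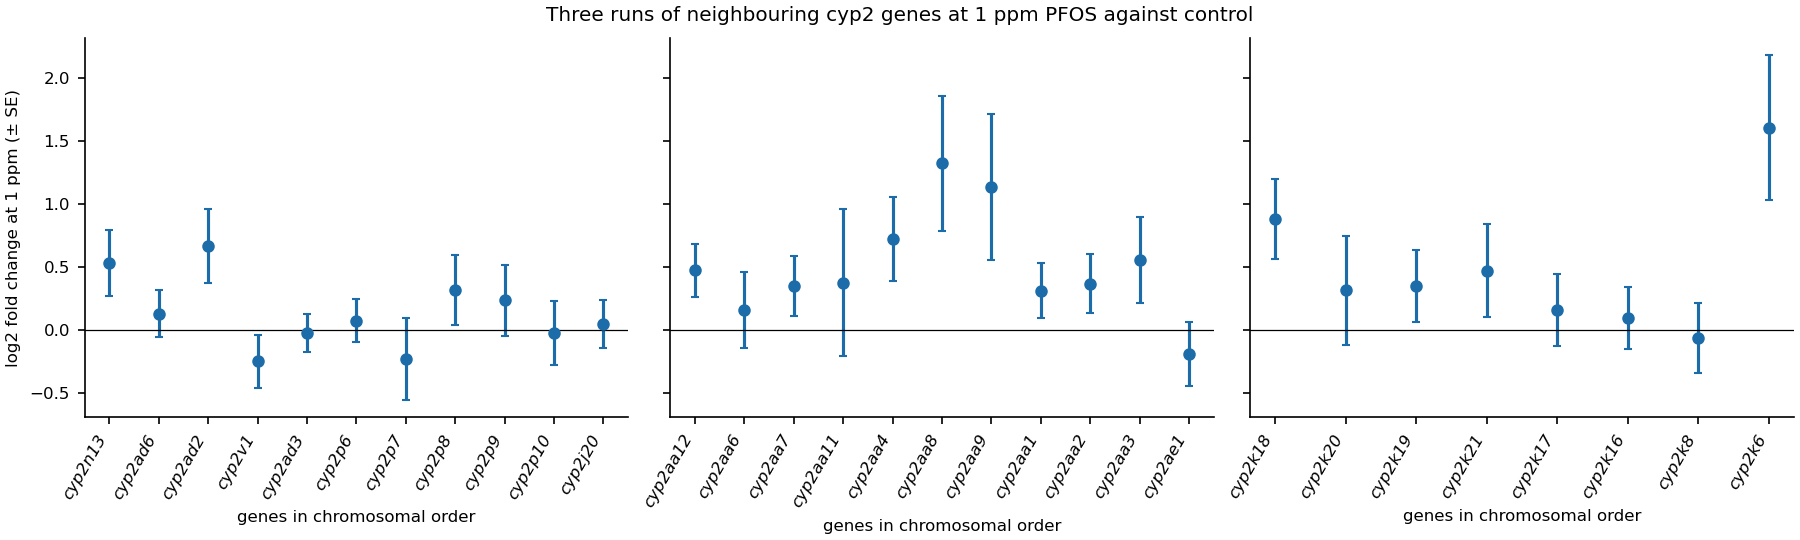
Log2 fold change at 1 ppm PFOS against control, with SE, for the cyp2 genes of 3 runs of neighbouring genes, in chromosomal order and without coordinates. Values in the middle and right panels are mostly above 0, up to 1.32 for cyp2aa8 and 1.61 for cyp2k6, and cyp2ae1 and cyp2k8 lie below 0.

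The cyp3 family had 5 genes, and 3 were above control at 1 ppm, beside 48.3% of all genes. None had an unadjusted p under 0.05 at 1 ppm, beside 4.74% of all genes. The gene cyp3a65 (ENSDARG00000103295), a Cyp3a enzyme of zebrafish liver and intestine, held 74.8% of the family counts. It had 7170, 9320 and 7795 normalised counts in the controls, 6620, 9573 and 5603 at 0.03 ppm, 6520, 5989 and 10451 at 0.3 ppm, and 11081, 10217 and 11884 at 1 ppm. All 3 libraries at 1 ppm were above all controls, and the lower doses held libraries both above and below them. The log2 fold change at 1 ppm was 0.46 (SE 0.23), with a 95% interval from -0.05 to 0.96. The next, cyp3c1, had 2108 ± 444 in the controls and 1933 ± 169 at 1 ppm (SD, n = 3). The other cyp3c genes were near control, with cyp3c4 at 232 ± 41.6 and 287 ± 69.3, cyp3c3 at 597 ± 111 and 638 ± 167, and cyp3c2 at 39.0 ± 11.4 and 37.3 ± 4.93.

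Among the phase II genes, ugt had 19 of 25 above control at 1 ppm, with a median of 0.40, beside 48.3% of all genes. Of the 25, 3 had an unadjusted p under 0.05, ugt5b4, ugt5g1 and ugt1b7, all higher, beside 4.74% of all genes. At 0.03 and 0.3 ppm 18 and 20 of 25 were above control, with medians of 0.10 and 0.16.

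The gene ugt1a1, whose mammalian counterpart conjugates bilirubin, held 36.6% of the ugt counts. It had 3680, 3563 and 4468 normalised counts in the controls and 6099, 4861 and 6725 at 1 ppm. At 0.3 ppm it had 4202, 2843 and 6785, which lie on both sides of the controls. The groups at 0 and 1 ppm did not overlap, with a log2 fold change of 0.59 (SE 0.28) and a 95% interval from -0.02 to 1.19.

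The gene ugt5b4, of a fish ugt family, had 1008, 1110 and 955 normalised counts in the controls, 1070, 1192 and 1063 at 0.03 ppm, 1371, 1012 and 1319 at 0.3 ppm, and 1274, 1230 and 1575 at 1 ppm. The lowest library at 1 ppm was above the highest control. The log2 fold change was 0.40 (SE 0.15, limma adjusted p = 0.887). In the ugt1b run all 4 tested genes were above control at 1 ppm, with a median of 0.59, and ugt1b5 was at 519 ± 129 and 705 ± 126 (SD, n = 3). In the ugt5a subfamily, ugt5a1 had 72, 140 and 156 in the controls and 158, 159 and 159 at 1 ppm, and ugt5a2 120, 129 and 183 and 201, 196 and 179. Only ugt5a1 was apart from the controls among these 2, by a small gap. The gene ugt8, a ceramide galactosyltransferase of myelin lipid synthesis rather than a xenobiotic enzyme, had 977 ± 18.4 in the controls and 1012 ± 49.2 at 1 ppm (SD, n = 3).

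The sult genes went both ways. At 1 ppm 12 of 19 were above control, with a median of 0.06, beside 48.3% of all genes. Of the 19, 5 had an unadjusted p under 0.05, beside 4.74% of all genes. Among these 5, sult1st3 and sult1st6 were higher and sult5a1, sult1st5 and sult3st4 lower.

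The gene sult1st3 (ENSDARG00000018361), a cytosolic sulfotransferase of the sult1 family, had 357, 345 and 305 normalised counts in the controls, 526, 489 and 257 at 0.03 ppm, 523, 403 and 435 at 0.3 ppm, and 586, 555 and 508 at 1 ppm. At 0.3 and 1 ppm every library was above every control, and at 0.03 ppm replicate 3 was below them. The log2 fold change at 1 ppm was 0.71 (SE 0.23, limma adjusted p = 0.746).

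The gene sult5a1 (ENSDARG00000007769) had 307, 504 and 844 normalised counts in the controls, 202, 210 and 529 at 0.03 ppm, 167, 146 and 303 at 0.3 ppm, and 158, 259 and 278 at 1 ppm. Every library at 0.3 and 1 ppm was below every control, and replicate 3 was the highest library in each group. The log2 fold change was -0.84 at 0.03 ppm, -1.38 at 0.3 ppm and -1.17 at 1 ppm (SE 0.44 each). Over all tested genes, same-numbered control and dose libraries deviated together at 0.3 ppm, and less clearly at 1 ppm. With the replicate number as a block, sult5a1 passed at 0.3 ppm (limma adjusted p = 0.0326) and not at 1 ppm (limma adjusted p = 0.0650).

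The gene sult1st5 had 135, 169 and 115 normalised counts in the controls, 74, 92 and 101 at 0.3 ppm, and 74, 110 and 76 at 1 ppm. Both dose groups lay wholly below the controls, by a narrow gap at 1 ppm. The log2 fold change at 1 ppm was -0.69 (SE 0.26, limma adjusted p = 0.887). The gene with the largest share of sult counts, sult6b1, had 2427 ± 303 in the controls and 2589 ± 524 at 1 ppm (SD, n = 3). The sult2 gene sult2st2 had 1718 ± 60.1 and 2150 ± 240, with all 3 libraries at 1 ppm above the controls, and sult1st1 had 1076 ± 355 and 1187 ± 164. The entry sult3st1 (ENSDARG00000009885) had 39, 58 and 40 in the controls and 77, 70 and 56 at 0.03 ppm, where it had its lowest p, and 55, 47 and 31 at 1 ppm.

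The gst genes had no common direction at 1 ppm. Of 15, 8 were above control, with a median of 0.01, beside 48.3% of all genes above control. None had an unadjusted p under 0.05, beside 4.74% of all genes. None had groups that did not overlap, beside 8.75% of all genes. In 15 genes, a count of 0 is near these last shares. At 0.03 ppm 3 of 15 were above control, with a median of -0.14, and at 0.3 ppm 10 of 15, with a median of 0.05.

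The genes gstp1 and gsta.1, of the pi and alpha classes, held 30.2% and 30.1% of the gst counts. In the controls gstp1 had 13284, 18197 and 18234 normalised counts, and at 1 ppm 14584, 18402 and 20191. The ranges overlapped, although 2 of the 3 libraries at 1 ppm were above every control, and the 95% interval of the log2 fold change ran from -0.31 to 0.50. For gsta.1 the controls had 15431, 15780 and 17475 and the 1 ppm libraries 15736, 21660 and 20639, with an interval from -0.14 to 0.63. Among the others, gstr had 2740 ± 369 and 3221 ± 491 normalised counts in the controls and at 1 ppm, gstm.3 1461 ± 441 and 1792 ± 559, gstz1 1096 ± 276 and 958 ± 177, and gsto2 6215 ± 772 and 6006 ± 1626 (SD, n = 3). The 95% interval of the log2 fold change held 0 for each of these genes. The gene gsta.2 had 1398, 1510 and 1282 in the controls and 862, 745 and 1283 at 0.3 ppm, and 1461, 1254 and 1475 at 1 ppm. The omega-class gene gsto1 had 362, 253 and 301 in the controls, 281, 166 and 242 at 0.3 ppm, and 290, 278 and 255 at 1 ppm. The gene gstp2 had the widest range of any gst gene over the libraries, 13.7 times from lowest to highest, with 348, 270 and 1079 in the controls and 460, 245 and 999 at 1 ppm, and its interval ran from -1.79 to 1.89.

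**Figure D4:**
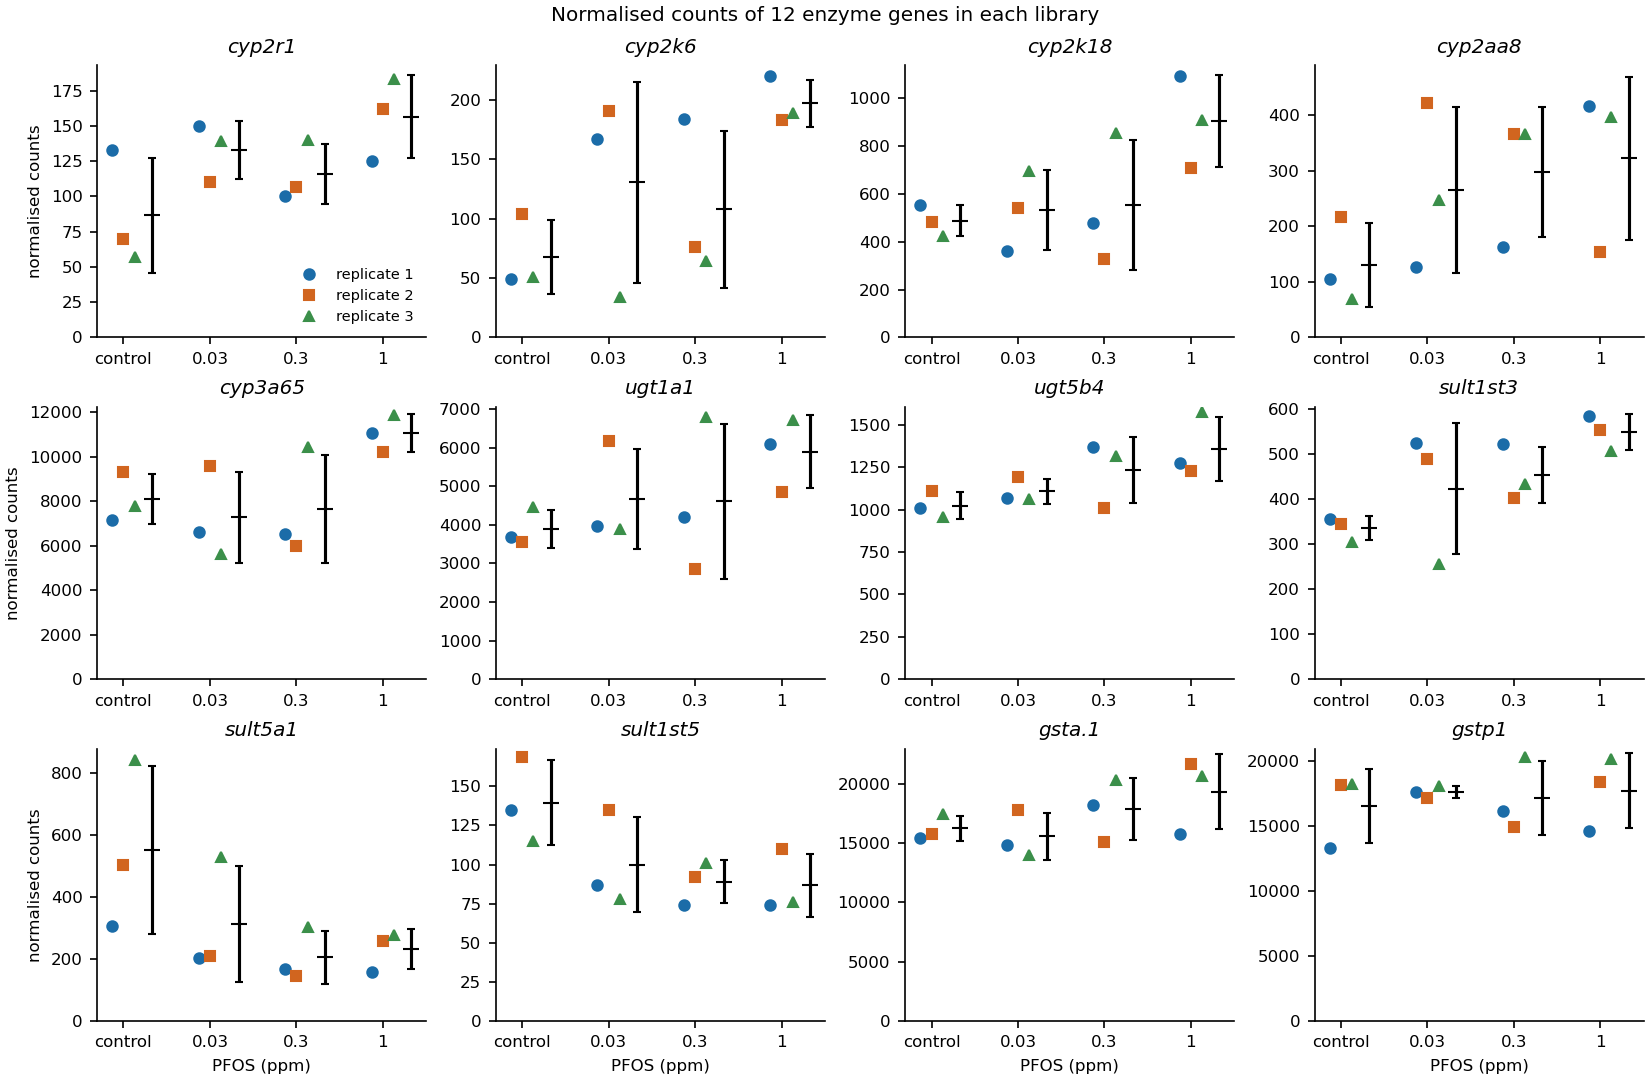
Normalised counts of 12 enzyme genes in each library by PFOS dose, with points for the 3 replicates and a bar for mean ± SD (n = 3). The 1 ppm libraries of cyp2k6, cyp2k18, cyp3a65, ugt1a1, ugt5b4 and sult1st3 lie above all controls, those of sult5a1 and sult1st5 below, and those of cyp2r1, cyp2aa8, gsta.1 and gstp1 overlap them.

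Counting genes whose 3 libraries at 1 ppm all lay outside the control range gave 16 higher, beside 4.41% of all genes, and 3 lower, beside 4.33%. At 0.3 ppm it was 4 higher, cyp2k17, gstt1a, gstt1b and sult1st3, beside 3.47%, and 2 lower, sult5a1 and sult1st5, beside 3.62%. At 0.03 ppm it was 1 higher, ugt5c2, beside 3.54%, and 0 lower, beside 3.86%. By group mean, 47 of the 103 were highest at 1 ppm, 22 at 0.3 ppm, 16 at 0.03 ppm and 18 in the controls, beside 25%, 19.3%, 24.9% and 30.8% of all genes. The group means were higher at each step of dose for 13 genes, beside 5.62%, and lower at each step for 4, beside 5.47%.

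The genes around these enzymes were taken from lists of regulators, partners and transporters, and 0 genes passed an adjusted p of 0.05 in any of them at any dose. At 1 ppm, 48.3% of all tested genes were above control and 4.74% had an unadjusted p under 0.05. Of 31 xenobiotic receptors and regulators, 15 were above control at 1 ppm, with a median of -0.05. The Pxr gene nr1i2 had 847 ± 290 normalised counts in the controls and 933 ± 315 at 1 ppm, and ahr2, the aryl hydrocarbon receptor, 1532 ± 32.9 and 1608 ± 183 (SD, n = 3). The gene nfe2l2a, which encodes Nrf2, a regulator of gst genes in vertebrates, had 6999 ± 397 and 6190 ± 1272. The liver and gut factor hnf4a had 283 ± 90.8 and 385 ± 81.0. Of 33 other phase I enzymes and P450 partners, 27 were above control, with a median of 0.15, and 5 had an unadjusted p under 0.05. Among them, the carboxylesterase ces3 had 1110, 1231 and 549 in the controls and 1767, 1840 and 1849 at 1 ppm (log2 fold change 1.00, limma adjusted p = 0.652), and cyp1a, the classic aryl hydrocarbon receptor target, had 397, 397 and 299 and 617, 409 and 616. Both lay above the controls in every library at 1 ppm. Of 20 genes of cofactor supply 11 were above control, with a median of 0.05, and of 12 other phase II enzymes 9, with a median of 0.12. The gene mat1a, which makes S-adenosylmethionine in liver, was at 2709 ± 583 and 4355 ± 654. Of 26 transporters of phase III, 20 were above control, with a median of 0.22, and 7 had an unadjusted p under 0.05, all higher. The exporter slc47a1 had 248, 260 and 234 in the controls and 338, 334 and 383 at 1 ppm, which do not overlap, and abcg2b had 118, 127 and 85 and 349, 140 and 204, which do not overlap either.

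Of the markers of liver, intestine, pronephros, epidermis and exocrine pancreas, 0 passed an adjusted p of 0.05. At 1 ppm most liver, intestine and pronephros markers were above control, and most epidermis and exocrine pancreas markers were below it. Of 34 liver markers 33 were above control, with a median of 0.58, of 24 intestine markers 22, with a median of 0.42, and of 17 pronephros markers 15, with a median of 0.53. Of 22 epidermis markers 8 were, with a median of -0.12, and of 17 exocrine pancreas markers 3, with a median of -0.22. At 0.03 and 0.3 ppm the numbers above control were 29 and 27 for liver and 14 and 15 for intestine. They were 9 and 11 for pronephros, 17 and 14 for epidermis and 2 and 0 for exocrine pancreas. Of all genes, 46.6%, 48.8% and 48.3% were above control at 0.03, 0.3 and 1 ppm. At 1 ppm 4.74% had an unadjusted p under 0.05, beside 11 of 34 liver and 5 of 17 pronephros markers, all higher. It was 1 of 22 epidermis markers, lower, and 0 of 17 exocrine pancreas markers. At 1 ppm 15 liver, 3 intestine and 6 pronephros markers did not overlap the controls, all higher, beside 8.75% of all genes. For epidermis and exocrine pancreas it was 0. Of the 5 intestine markers with an unadjusted p under 0.05, 3 were higher and 2 lower, elf3 with 2178, 3894 and 2840 in the controls and 736, 2336 and 848 at 1 ppm and mep1b with 106, 82 and 133 and 99, 18 and 44. The liver marker tfa, a transferrin gene, had 13653, 16690 and 9120 in the controls and 27018, 21564 and 31153 at 1 ppm. The summed liver markers ran from 113307 to 169735 normalised counts in the controls and from 160387 to 177249 at 1 ppm, which overlap, and the intestine markers from 58236 to 69963 and from 74458 to 87648, which do not. The pronephros markers ran from 4781 to 6272 and from 5237 to 9142, which overlap. The epidermis sums ran from 1181719 to 2334881 and from 1289399 to 3353672, which overlap, with the higher mean at 1 ppm. The exocrine pancreas sums ran from 36396 to 121051 and from 25829 to 62571, which overlap too. The epidermis median difference from the control mean was -0.31, 0.53 and -0.45 in the 1 ppm libraries, so these were split. That of exocrine pancreas ranged from -0.83 to 1.03 within the controls. No listed marker was at 0 in every library. Libraries also differed within a group. At 0.3 ppm the median of cyp2 genes was 0.30 in replicate 3 and -0.06 in replicate 2, that of ugt genes 0.39 and -0.01, and that of liver markers 0.76 and -0.34. Other libraries did not share this order. In control replicate 3 the medians were -0.43 for liver markers, -0.16 for cyp2 and 0.23 for ugt. In replicate 3 at 0.03 ppm they were 0.24 for liver markers, 0.07 for cyp2, 0.03 for ugt and -0.27 for cyp3. The part of liver, intestine and pronephros RNA in the enzyme values was not tested.

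**Figure D5:**
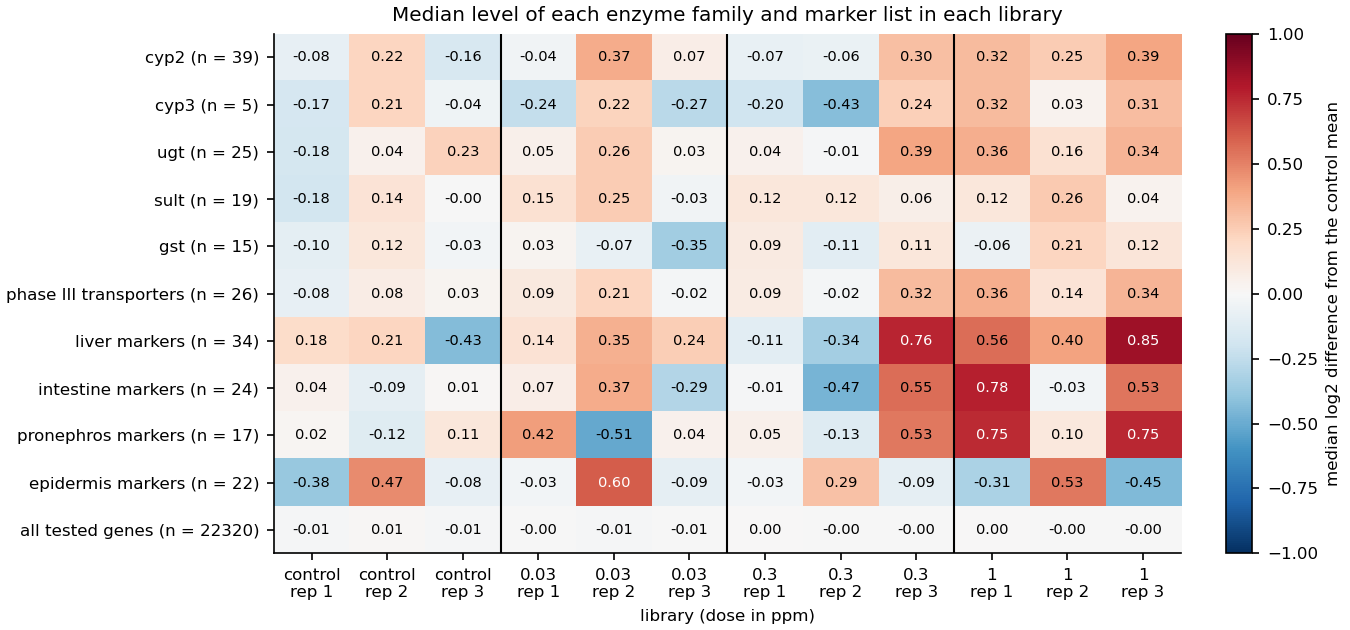
Median log2 difference from the control mean in each library, for the enzyme families, phase III transporters, organ marker lists and all tested genes, with n genes per row. Liver markers at 1 ppm were at 0.56, 0.40 and 0.85 and cyp2 genes at 0.32, 0.25 and 0.39, and replicate 3 at 0.3 ppm was high in both. Control replicate 3 was at -0.43 for liver markers and 0.23 for ugt genes.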

How the data were processed

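RNA from 12 whole-larva pools was made into stranded poly-A libraries, per the labels' protocols. Per the submitters' processing notes, the authors used the build GRCz10 and the tools STAR (2.5.1b), CASAVA, DESeq2 (1.10.1) and RSEM (1.2.28), with no role stated, and the annotation release is not given in the sources used here. The deposited values are a score per gene, the authors' normalised counts rounded to whole numbers, so a count model was not used. The per-library values were used, and 12 columns of a series table were not. From them, log2(value + 1) was fitted with limma 3.58.1 (R 4.3.3) in a single model of the 4 groups (12 libraries), with the prior variance following mean level, for genes with at least 10 in at least 3 libraries. Each dose was tested against control, all doses jointly, and a slope over group order, with Benjamini-Hochberg adjustment over 22320 genes at a threshold of 0.05. Intervals are at 95%. The fit was also run on simulated data with independent noise in each library, without shared deviations of same-numbered libraries. No result above rests on that run.

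The enzyme genes and the lists were chosen with earlier results of these data known. The rule for named genes took any gene that passed and, in each family, the 4 with the smallest unadjusted p at 1 ppm, the 2 smallest at 0.03 and at 0.3 ppm, the 3 with the highest mean, and cyp3a65, gstp1, ugt1a1 and sult1st1. It gave 42 genes. From each other list it took the 2 with the smallest p at 1 ppm, plus nr1i2, ahr2, nfe2l2a and cyp1a. A gene that this rule took is not reported here. The names cyp2aa12, cyp2ad2, cyp2ae1, cyp2j20, cyp2k17, cyp2k8, gstp2, gstt1b and ugt5b5p, and the untested genes, fall outside it and were chosen after their values were seen. No 2 libraries held identical values. Deviations from group means correlated between same-numbered control and dose libraries at 0.108, 0.291 and 0.0776 for 0.03 ppm. The values were 0.274, 0.287 and 0.145 for 0.3 ppm, and 0.273, 0.478 and 0.119 for 1 ppm. Control replicate 1 with dose replicate 3 reached 0.226 at 0.03 ppm and 0.204 at 1 ppm. At 0.3 ppm all differently numbered libraries correlated below 0. As deviations were taken from each group mean, positive same-numbered values make the others negative on balance, so these are not separate support. The numbers may thus pair the libraries, most clearly at 0.3 ppm. The main fit, with its SE, intervals and adjusted p, left such pairing out. The block was a single term over all 12 libraries. The alternatives were other scalings, filters and pseudocounts, a replicate block, library weights, no trend, 2 groups only and leaving out each library. No sequences were used here.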

Additional observations from a re-analysis of the deposited data

How the results depend on the processing

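The count of 0 enzyme genes passing held under each alternative except these. With the replicate block 1 passed at 0.3 ppm (sult5a1), where 43 of all 22320 genes passed. With library weights 1 passed at 0.3 ppm (sult5a1; 95 of all genes), 11 at 1 ppm (768 of all genes), 2 jointly (cyp2r1 and sult5a1; 188 of all genes) and 10 in the slope (882 of all genes). The block changed no other call. As a median over genes the cyp3 ratio at 1 ppm was 0.0726. Some genes near 0 at 1 ppm changed sign. With library weights the log2 fold change was 0.59 for cyp2x10.2 (ENSDARG00000068283), 0.0189 for sult3st1 (ENSDARG00000009885), -0.19 for sult1st1, -0.0547 for gstp1, 0.13 for gsta.2 and -0.0058 for sult6b1, and with equal library totals 0.0182 for gsta.2. Leaving out each library in turn, for the same entries where a name is shared, it ranged from -0.66 to 0.10 for cyp2x10.2, from -0.23 to 0.18 for sult3st1, from -0.0495 to 0.31 for cyp3c3, from -0.18 to 0.19 for cyp3c2, from -0.26 to 0.0457 for cyp3c1, from -0.16 to 0.0446 for cyp2ad3, from -0.0963 to 0.41 for sult1st1, from -0.32 to 0.0117 for gstz1, from -0.0525 to 0.23 for gstp1, from -0.0608 to 0.0750 for gsta.2, from -0.28 to 0.12 for gsto2 and from -0.0354 to 0.26 for sult6b1. The cause was not tested. The count of 17 enzyme genes at an unadjusted p under 0.05 at 1 ppm ranged from 6 to 19 when each library was left out, that of 2 at 0.03 ppm from 2 to 7, that of 6 at 0.3 ppm from 6 to 9 and that of 2 in the joint test from 0 to 9. Over the same fits the share of all genes ranged, in that order, from 2.63% to 8.754%, from 2.72% to 5.067%, from 2.576% to 3.795% and from 1.689% to 3.889%. The count of 19 at 1 ppm came with the share of 8.754%. With the block, the joint count was 11, against 5.52% of all genes, and the count at 0.03 ppm 6, against 6.86%. With 3 pools a group and rounded normalised values, small differences in genes with few counts were not detectable. Larger ones could also fail to pass, as at 1 ppm for cyp2k6 (log2 fold change 1.61, limma adjusted p = 0.863) and cyp2k18 (0.88, limma adjusted p = 0.874).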
